A study of Mus musculus with 3 samples.

Results

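DNA repair in SB28, a mouse glioblastoma model cell line, was described through 55 genes of direct alkylation reversal, mismatch repair, base and nucleotide excision repair, recombination, the Fanconi anaemia pathway, break sensing and end joining. The genes were chosen by symbol, with no threshold on a measured value, for their bearing on the mutation load of the line and on alkylating drugs, and all 55 were found among the 24421 gene lines of the count tables. The samples were 3 RNA-seq libraries of SB28, replicates 1, 2 and 3, on a C57BL/6 background, with brain as the stated source and total RNA as the material. The labels name no treatment, age, passage or second genotype and there is no control group, so every comparison is between genes within the line or between these libraries. As background, SB28 was derived from a brain tumour induced in mice by transposon transfer of activated NRAS, PDGF and a short hairpin RNA against p53, and it is 1 line. The labels do not say whether separate cultures were used, so SDs and p-values cover the variation among these 3 libraries alone, and that variation may be technical.

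Cells remove DNA damage by routes that fit the lesion. Alkyl groups can be taken off the base directly, single damaged bases are cut out by glycosylases, bulky adducts are excised with a stretch of the strand, and replication errors are found by mismatch repair. Double-strand breaks are rejoined by end joining or copied from the sister by homologous recombination, under the control of checkpoint kinases. In glioma, the direct reversal enzyme MGMT and the mismatch repair proteins are known for setting the response to temozolomide in patients, an alkylating drug whose guanine lesions kill cells mainly when mismatch repair acts on them.

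The libraries held between 28990128 and 36019009 counts assigned to genes, of which the 55 repair genes took 0.182% to 0.214%. Levels are given as counts per 1000000 of these counts (CPM), in the order of replicates 1, 2 and 3, or as CPM per kilobase of exon (CPM per kb) where genes are compared with each other. Replicates 1 and 2 lay close together and replicate 3 lay apart. A chi-square test of each gene's counts with Benjamini-Hochberg adjustment called 2.01% of genes different between replicates 1 and 2, against 64.0% between replicates 1 and 3 and 62.9% between replicates 2 and 3. The biological coefficient of variation that edgeR estimated was 2.05% for replicates 1 and 2, 21.9% for replicates 1 and 3 and 21.6% for replicates 2 and 3. The stated source was met by its markers in part: Vim, Nes and Sox2 were abundant (summed level of the 10 glial and progenitor markers 6343 to 6623 CPM, of which Vim alone held 5317 to 5513 CPM), while Slc1a3 of astrocytes lay at 0.527 to 0.586 CPM and Gfap, also of astrocytes, and Olig2 of oligodendrocyte progenitors had 0 counts in every library. Of markers of other cells, 0 of 8 for lymphocytes, 1 of 8 for microglia and macrophages (Cd68), 1 of 6 for neurons (Tubb3) and 2 of 6 for endothelium (Kdr and Cdh5) reached 1 CPM in all libraries. Their summed levels ran from 0 to 0.0919, 4.14 to 5.77, 17.5 to 22.99 and 306 to 382 CPM, in that order. Cdh5 made up nearly all of the endothelial sum, and Cldn5 of that list had 0 counts.

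Nearly all of the chosen repair genes were detected. Of the 55 genes, 54 (98.2%) reached 1 CPM in all 3 libraries, against 46.6% of all genes and 54.1% of protein-coding genes; the exception was the glycosylase gene Neil2. Levels were mostly moderate: the median over the 55 genes was 3.86 ± 0.396 CPM per kb (SD, n = 3), against 7.57 CPM per kb for the genes detected in all libraries, and 17 of the 55 lay above that median. The 4 in the top 20% of detected genes were the endonuclease gene Apex1, the break sensor gene Parp1, the mismatch recognition gene Msh6 and the helicase gene Ercc3. Reads that touch the exons of more than 1 gene are set aside by counters of the kind used here, and 10 of the 55 genes share over 10% of their exon bases with another listed gene, so their levels can be understated.

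**Figure D1:**
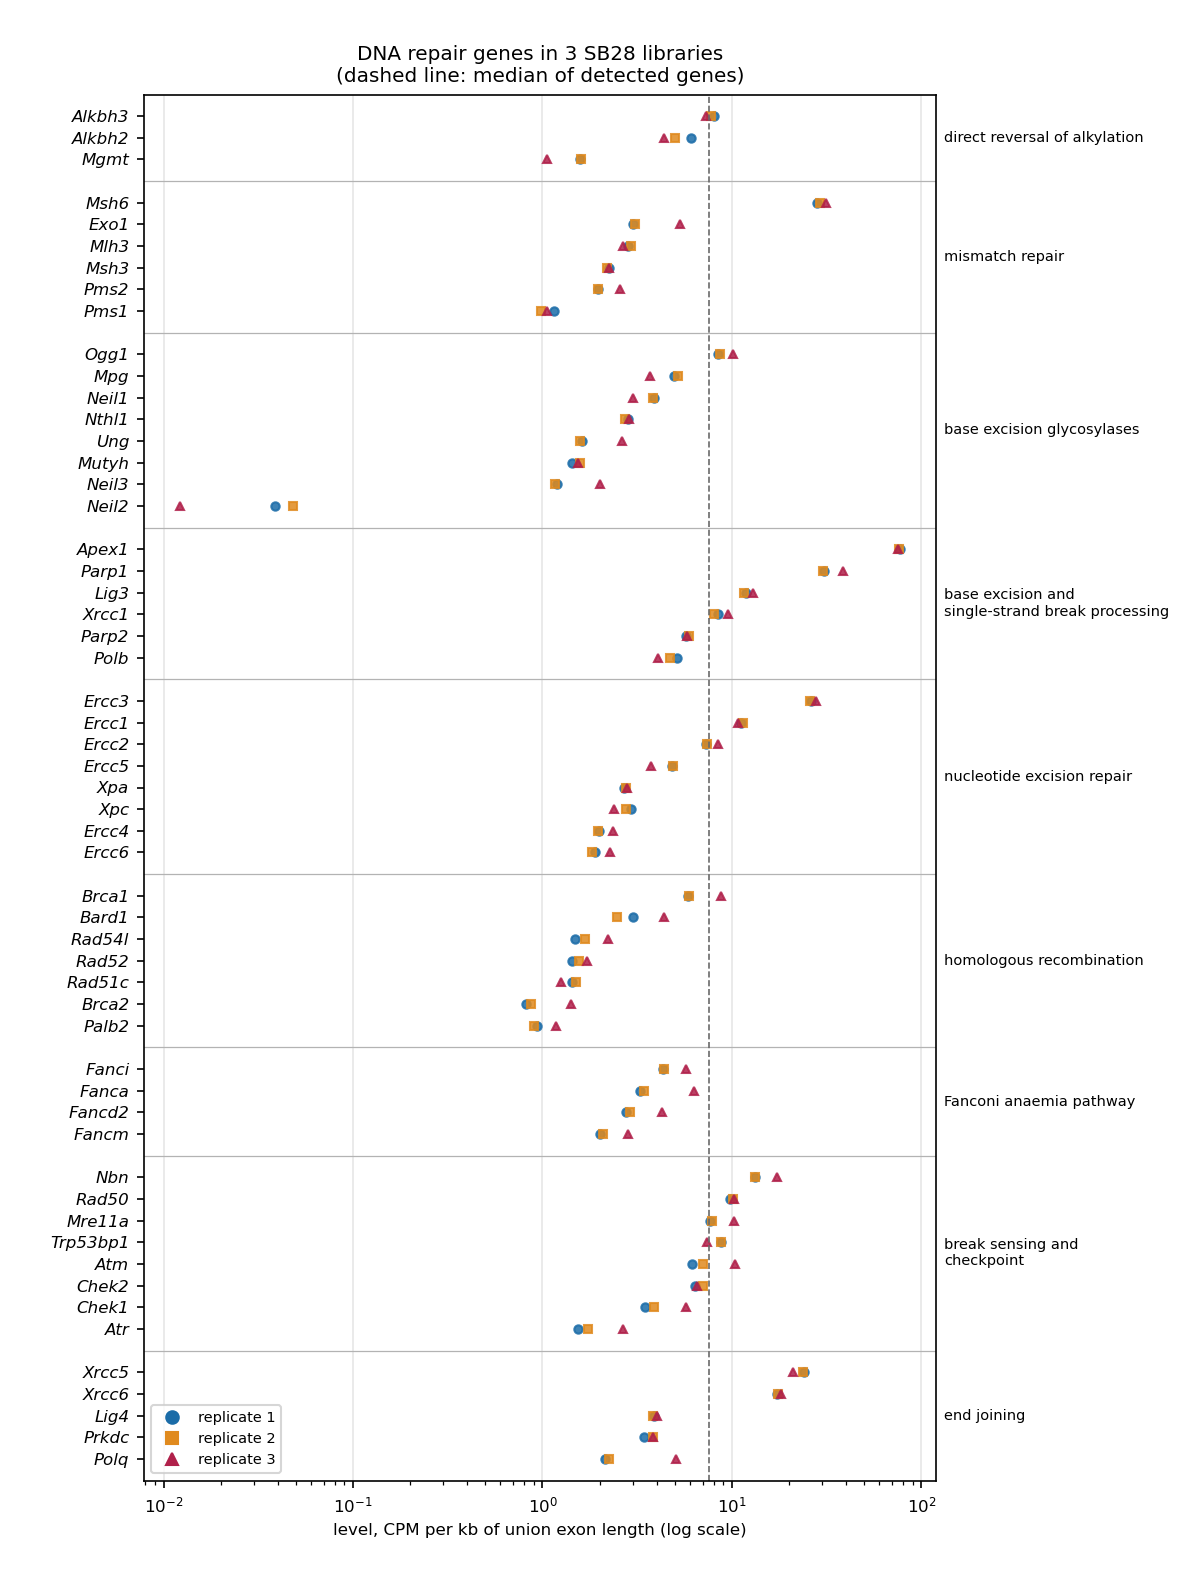
Level of each of the 55 DNA repair genes in CPM per kb of union exon length (log axis), by role, with 1 point per library; the dashed line is the median of the genes detected in all 3 libraries, 7.57 CPM per kb. Most genes lie left of the line, Apex1, Parp1, Msh6 and Ercc3 lie far to its right and Neil2 lies far to its left.

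The same chi-square test over all 3 libraries, after TMM scaling (trimmed mean of M values), was run for the 54 repair genes with enough counts. Of these, 38 (70.4%) differed between libraries beyond counting noise, against 65.7% of the 12737 genes tested, a share near the background. The direction differed more: 29 genes (53.7%) were called and highest in replicate 3, against 33.1% of all genes tested, and 9 (16.7%) were called and lowest there, against 31.5%. Where the mean count reached 200 or more, 36 of 49 repair genes were called, against 73.1% of all genes, and the shares by direction were 59.2% of repair genes against 38.7% of all genes for highest, and 14.3% against 33.2% for lowest. Of the repair genes tested, 12 (22.2%) spanned at least 1.5-fold from the lowest to the highest library, against 22.9% of all genes. All 12 were highest in replicate 3, so the share spanning this fold and highest there was 22.2% of repair genes, against 8.93% of all genes tested. For lowest there it was 0 repair genes, against 12.9% of all genes tested. Among all genes, 2913 spanned this fold, of which 1137 were highest and 1647 lowest in replicate 3. The 12 were Polq, Fanca, Exo1, Bard1, Neil3, Brca2, Atr, Atm, Ung, Chek1, Fancd2 and Rad54l. The 0 depends on the cut: Mgmt, lowest in replicate 3, just missed it at 1.497-fold, and Rad54l only just passed it. Without replicate 3, 1 of 54 repair genes differed, Atm, against 2.01% of all genes. The counts of called genes in the single roles below stand against these same shares of all genes tested. All folds between libraries are of TMM-scaled CPM, while the CPM themselves are not TMM-scaled.

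**Figure D2:**
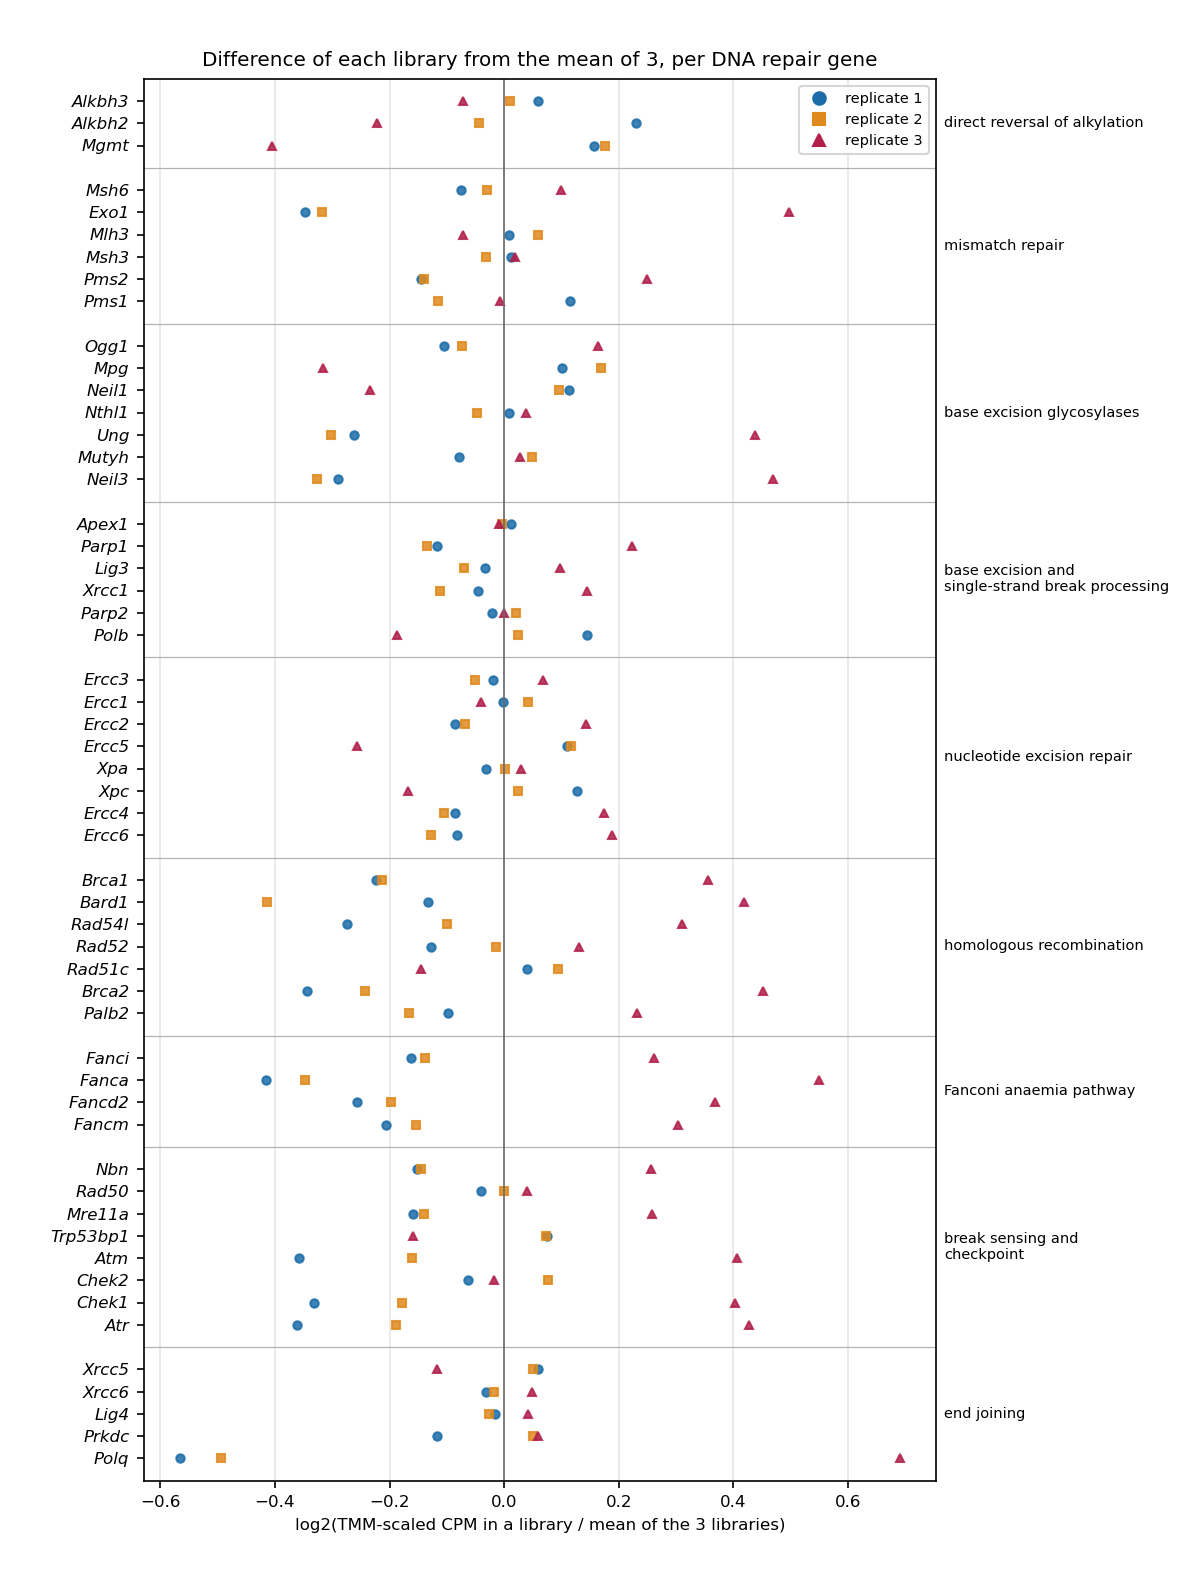
Log2 of the TMM-scaled CPM of each library over the mean of the 3 libraries, for 54 DNA repair genes by role (Neil2, with 16 counts in all, is not shown). Replicate 3 lies to the right for all 4 Fanconi genes and most recombination and checkpoint genes, to the left for the 3 direct reversal genes, and near 0 for Apex1, Parp2 and Xpa.

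Transcripts for direct reversal of alkylation were present, with Mgmt the lowest. Mgmt encodes the methyltransferase that moves alkyl groups from guanine onto its own cysteine and lies on chromosome 7 at 136894614 to 137130266 (GRCm38). It stood at 4.55, 4.62 and 3.06 CPM in replicates 1, 2 and 3, or 1.41 ± 0.304 CPM per kb (SD, n = 3), at percentile 13.3 of the detected genes. Alkbh2, an oxygenase that removes methyl groups from bases of double-stranded DNA, stood at 6.75, 5.59 and 4.90 CPM, and Alkbh3, a related enzyme with a preference for single strands, at 25.4, 24.6 and 23.1 CPM. Replicate 3 was the lowest library for all 3 genes. Mgmt and Alkbh2 differed between libraries beyond counting noise in the chi-square test (adjusted p = 0.00469 and 0.0112), Alkbh3 did not pass it (adjusted p = 0.229), and the Alkbh2 call was lost without replicate 1 (adjusted p = 0.34).

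To compare genes that act in 1 complex or as alternatives, the ratio of their levels per kb was taken within each library. A ratio was called larger than the spread between libraries when all 3 values lay on 1 side of 1 and the mean on the log2 scale exceeded 2 SD. Of 20 pairs, 16 met this. The share among pairs of other genes was not measured, so this count does not set repair genes apart from other genes. The exact two-sided sign-flip permutation test cannot give less than 0.25 with 3 libraries; it gave 0.25 for 19 pairs (0.263 adjusted over the 20 pairs) and 0.5 for Polq over Lig4. Mpg, encoding the glycosylase that cuts out alkylated adenine, lay 3.13, 3.24 and 3.47 times as high as Mgmt per kb in replicates 1, 2 and 3, larger than the spread (5.74 times with the length of the longest transcript). Alkbh3 over Alkbh2 gave 1.33, 1.55 and 1.66, a call that was lost when the 29.5% of Alkbh2 exon bases shared with Usp30 were left out (1.09 times); the ratio was 3.28 with longest transcripts and 4.27 without length correction.

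**Figure D3:**
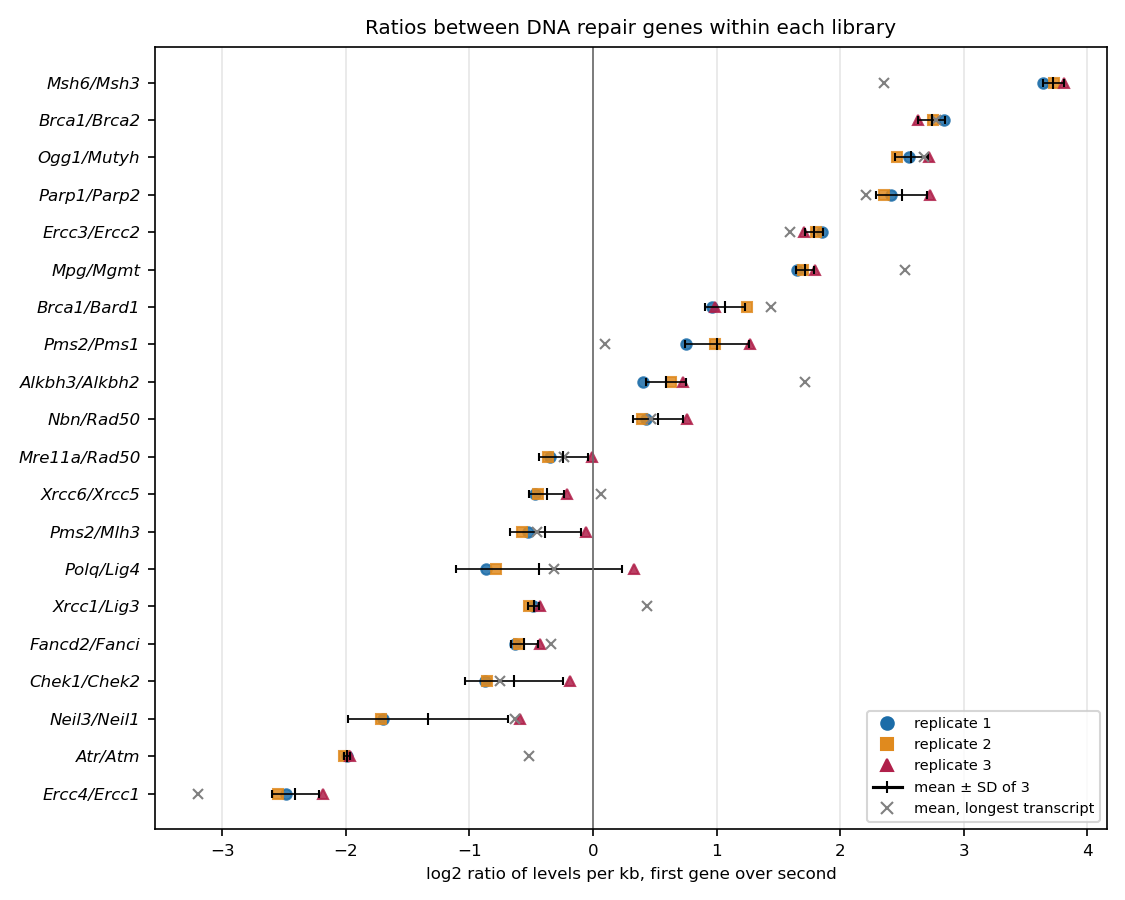
Log2 ratio of the levels per kb of 20 gene pairs, first gene over second, with 1 point per library, the mean ± SD of 3 as a black bar and the mean with longest-transcript lengths as a grey cross. Msh6 over Msh3 is the highest ratio, Ercc4 over Ercc1 the lowest, and the crosses of Xrcc1 over Lig3 and Xrcc6 over Xrcc5 fall on the other side of 0.

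Mismatch repair was led by Msh6. Msh6 and Msh3 encode alternative subunits of the recognition dimers, the first for base mismatches and short loops, the second for longer loops. Msh6 stood at 122, 126 and 137 CPM and Msh3 at 25.3, 24.6 and 25.3 CPM. Per kb, Msh6 lay 12.5, 13.3 and 14 times as high as Msh3 in replicates 1, 2 and 3, the largest of the 20 ratios and larger than the spread; with longest-transcript lengths it was 5.11 times. The chi-square test called Msh6 different between libraries, with 1.13-fold from the lowest to the highest, and did not call Msh3 (adjusted p = 0.798).

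The promoter windows of these recognition genes are shown because both hold a word of the E2F motif, the binding motif of the factors that drive genes for DNA synthesis. Sequences are RefSeq windows of GRCm38.p6 from 250 bases before to 50 bases after the gene start, 5′ to 3′ on the gene's strand, and capitals mark the motif words (TTTCCCGC, TTTGGCGC, TTTCGCGC or TTTGCCGC on either strand). Msh6 lies at chr17:87974800-87975099, plus strand, and its word stands 15 bases after the gene start. Msh3 lies at chr13:92354954-92355253, minus strand, and its words, which overlap on opposite strands, stand 202 and 198 bases before the gene start.
Msh6: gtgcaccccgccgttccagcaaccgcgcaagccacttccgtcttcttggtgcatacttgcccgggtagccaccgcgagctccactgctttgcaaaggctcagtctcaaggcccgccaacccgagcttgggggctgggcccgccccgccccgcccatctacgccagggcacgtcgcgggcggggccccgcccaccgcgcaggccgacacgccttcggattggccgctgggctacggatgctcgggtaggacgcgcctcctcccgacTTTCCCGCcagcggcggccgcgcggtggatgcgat
Msh3: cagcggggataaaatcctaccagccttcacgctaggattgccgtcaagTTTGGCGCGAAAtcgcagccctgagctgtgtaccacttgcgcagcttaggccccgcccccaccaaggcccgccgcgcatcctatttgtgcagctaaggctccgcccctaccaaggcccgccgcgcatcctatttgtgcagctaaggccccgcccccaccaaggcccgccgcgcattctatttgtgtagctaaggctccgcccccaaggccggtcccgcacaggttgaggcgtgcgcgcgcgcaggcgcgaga

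The nicking subunits lay well below Msh6. Pms2, the endonuclease partner in the main nicking dimer, stood at 15.9, 15.9 and 20.7 CPM. Mlh3 and Pms1, its alternatives, stood at 21.3, 22.1 and 20.01 CPM and 8.72, 7.45 and 7.97 CPM. Pms2 over Pms1 gave 1.69, 1.98 and 2.41 per kb, a call that was lost with longest-transcript lengths (1.07) and held without length correction (2.16). Pms2 over Mlh3 gave 0.694, 0.672 and 0.963 and was not larger than the spread with all 3 libraries. Exo1, the exonuclease that removes the faulty strand, stood at 25.2, 25.8 and 45.05 CPM, close in replicates 1 and 2 and 1.80-fold higher in replicate 3 than in the lowest library (adjusted p = 2.5e-57, chi-square test). Of the 6 mismatch repair genes, Msh6, Pms2 and Exo1 differed between libraries, all highest in replicate 3, and Msh3, Mlh3 and Pms1 did not pass the test.

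Base excision glycosylases were low as a list, with a median of 2.37 ± 0.324 CPM per kb (SD, n = 3). Ogg1, which removes oxidised guanine, led it at 18.5, 18.9 and 22.2 CPM (9.08 ± 0.914 CPM per kb). Mutyh, which removes adenine placed opposite oxidised guanine, stood at 3.75, 4.10 and 4.01 CPM. Ogg1 over Mutyh gave 5.87, 5.49 and 6.57 per kb, larger than the spread. Mpg stood at 18.5, 19.5 and 13.8 CPM, lowest in replicate 3, and shares 35.7% of its exon bases with Nprl3. Ung, which removes uracil from DNA, stood at 8.86, 8.62 and 14.3 CPM and was highest in replicate 3.

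The glycosylases for oxidised pyrimidines differed in direction. Neil1 stood at 7.22, 7.14 and 5.64 CPM, lowest in replicate 3, and Neil3, a relative found in dividing cells, at 6.61, 6.45 and 11.1 CPM, highest in replicate 3. The ratio of Neil3 to Neil1 was accordingly uneven, at 0.308, 0.304 and 0.664 per kb, and the call was lost without replicate 1 (0.449 as the mean), without replicate 2 (0.452) and with longest-transcript lengths (0.646), and the direction turned without length correction (1.18). Nthl1 stood at 7.69, 7.42 and 7.81 CPM and did not pass the test between libraries. Neil2, on chromosome 14 at 63182443 to 63193856, had 7, 7 and 2 counts, or 0.194, 0.241 and 0.0613 CPM, with exact 95% Poisson intervals of 0.0781 to 0.400 CPM, 0.0971 to 0.498 CPM and 0.00742 to 0.221 CPM that cover counting error only. The intervals overlap, which is not a test of difference. Neil2 lay below the mean count of 10 needed for the chi-square test, so a difference between libraries was not tested. Of the 7 glycosylase genes tested, Ogg1, Ung and Neil3 were called and highest in replicate 3, and Mpg and Neil1 were called and lowest there.

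Downstream of the glycosylases the median level was 10.4 ± 0.739 CPM per kb (SD, n = 3), the highest of the 9 roles. Apex1, which cuts the strand at the emptied site, had the highest level of the 55 genes, 76.3 ± 0.779 CPM per kb (SD, n = 3), and stood at 109.6, 109 and 107 CPM, within 1.02-fold across libraries and with no call (adjusted p = 0.829, chi-square test). It lies on chromosome 14 at 50924968 to 50927139 and shares 61.7% of its exon bases with Tmem55b, the most of any of the 55 genes. Polb, the polymerase that fills the gap, stood at 20.2, 18.7 and 16 CPM, lowest in replicate 3.

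Parp1, on chromosome 1 at 180568924 to 180601254, encodes the main sensor of strand breaks and stood at 161, 159.8 and 203 CPM, highest in replicate 3 by 1.28-fold over the lowest library. Its relative Parp2 stood at 20.8, 21.5 and 20.99 CPM and did not pass the test. Parp1 over Parp2 gave 5.32, 5.10 and 6.63 per kb, larger than the spread in these libraries. Xrcc1, the scaffold of this step, stood at 49.1, 46.98 and 55.6 CPM, and its ligase Lig3 at 85.95, 84.03 and 93.7 CPM, both highest in replicate 3. Per kb, Xrcc1 over Lig3 gave 0.713, 0.699 and 0.742, but the direction turned with longest-transcript lengths (1.35), so which of the pair is higher depends on the length used. Of these 6 genes, Parp1, Xrcc1 and Lig3 were called and highest in replicate 3, and Polb was called and lowest.

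All 8 nucleotide excision repair genes were detected, with a median of 3.66 ± 0.346 CPM per kb. Xpc, which finds distorted DNA, stood at 16.2, 15.1 and 13.1 CPM. Xpa, which checks the lesion, stood at 5.08, 5.21 and 5.27 CPM, even across libraries (adjusted p = 0.939, chi-square test). The TFIIH helicase genes Ercc3 and Ercc2 stood at 74.2, 72.7 and 78.3 CPM and 30.3, 30.7 and 35.3 CPM. Ercc3 over Ercc2 gave 3.60, 3.48 and 3.26 per kb, larger than the spread.

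The incision genes were uneven. Ercc1 and Ercc4 encode the subunits of 1 nuclease; Ercc1 stood at 34.5, 35.7 and 33.4 CPM and Ercc4 at 13.3, 13.2 and 15.9 CPM. Ercc4 over Ercc1 gave 0.179, 0.171 and 0.220 per kb, the lowest of the 20 ratios, and 0.109 with longest-transcript lengths. Ercc5, the nuclease on the other side of the lesion, stood at 28.4, 28.6 and 21.9 CPM, and Ercc6, which starts repair at stalled RNA polymerase, at 24.3, 23.6 and 29.1 CPM. Of the 8 genes, Ercc2, Ercc3, Ercc4 and Ercc6 differed between libraries and were highest in replicate 3, and Xpc and Ercc5 differed and were lowest there. The Xpc call was lost without replicate 1 (adjusted p = 0.074).

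Homologous recombination had the lowest median of the 9 roles, 1.57 ± 0.136 CPM per kb (SD, n = 3). Brca1, which with Bard1 forms a ubiquitin ligase at breaks, stood at 49.9, 50.4 and 74.2 CPM and Bard1 at 17.02, 14.04 and 24.8 CPM. Brca2, which loads the recombinase onto single strands, stood at 11.1, 11.9 and 19.2 CPM, and Palb2, which links Brca1 and Brca2, at 6.89, 6.59 and 8.61 CPM. All 4 differed between libraries and were highest in replicate 3, with 1.49-fold for Brca1, 1.78-fold for Bard1, 1.74-fold for Brca2 and 1.32-fold for Palb2 from the lowest to the highest library. Per kb, Brca1 over Bard1 gave 1.94, 2.38 and 1.98 and Brca1 over Brca2 gave 7.18, 6.74 and 6.18, both larger than the spread.

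Rad54l, a motor protein of strand exchange, stood at 11.4, 12.9 and 17.1 CPM and was highest in replicate 3. Rad51c, a relative of the recombinase, stood at 6.30, 6.55 and 5.52 CPM, and Rad52, an annealing protein, at 8.27, 8.97 and 9.84 CPM. Neither Rad51c (adjusted p = 0.306) nor Rad52 (adjusted p = 0.116) passed the chi-square test, although Rad52 did without replicate 2 (adjusted p = 0.042). The promoter windows of Bard1 and Brca2 are shown because they carry an E2F word and their transcripts were highest in replicate 3. Only the exact words listed above were searched, so other forms of the motif were not counted. Among the repair genes a word stood in 3 of 25 windows of genes called and highest there. It stood in 0 of 8 windows of genes called and lowest there and 6 of 19 windows of the others, and a link was not tested. Capitals mark the word. Bard1 lies at chr1:71102923-71103222, minus strand and Brca2 at chr5:150522371-150522670, plus strand, with the word 209 and 168 bases before the gene start.
Bard1: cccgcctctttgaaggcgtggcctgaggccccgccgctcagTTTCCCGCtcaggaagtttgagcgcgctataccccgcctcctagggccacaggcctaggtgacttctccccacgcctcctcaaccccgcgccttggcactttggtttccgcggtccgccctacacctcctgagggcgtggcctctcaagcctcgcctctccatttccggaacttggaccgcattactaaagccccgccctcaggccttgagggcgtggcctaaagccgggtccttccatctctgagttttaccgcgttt
Brca2: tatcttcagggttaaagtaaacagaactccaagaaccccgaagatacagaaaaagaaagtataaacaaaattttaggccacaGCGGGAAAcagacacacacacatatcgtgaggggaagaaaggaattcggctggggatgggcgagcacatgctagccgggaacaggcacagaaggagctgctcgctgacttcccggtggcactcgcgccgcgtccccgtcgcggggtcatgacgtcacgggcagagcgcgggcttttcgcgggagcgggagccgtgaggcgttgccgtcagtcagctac

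All 4 Fanconi anaemia genes, of the pathway that opens crosslinks between strands, differed between libraries and were highest in replicate 3. Of all genes tested, 33.1% were called and highest there. Fanca, of the core ligase complex, stood at 28.6, 30.04 and 55.6 CPM, 1.95-fold from the lowest to the highest library (adjusted p = 3.4e-87, chi-square test). Fancm, the translocase that anchors the core, stood at 20.9, 21.7 and 29.5 CPM. The clamp subunits Fancd2 and Fanci stood at 22.02, 22.97 and 33.8 CPM and 24.8, 25.3 and 33.1 CPM. In each of the 4 genes, replicates 1 and 2 lay together and replicate 3 above them. Fancd2 over Fanci gave 0.645, 0.660 and 0.742 per kb, larger than the spread, a call that was lost without length correction (0.936).

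The break sensors Mre11a, Rad50 and Nbn, which form 1 complex on broken ends, were all well above the median of the 55 genes per kb. The nuclease gene Mre11a stood at 45.6, 46.3 and 60.6 CPM, Rad50 at 52.6, 54.1 and 55.3 CPM and Nbn at 33.3, 33.6 and 44 CPM. Mre11a and Nbn were highest in replicate 3 and called, and Rad50 did not pass the test (adjusted p = 0.308, chi-square test). Per kb, Nbn over Rad50 gave 1.34, 1.32 and 1.69, larger than the spread, although the direction turned without length correction (0.679). Mre11a over Rad50 gave 0.787, 0.776 and 0.995, not larger than the spread. Trp53bp1, which shields ends from resection, stood at 123, 123 and 104 CPM and was lowest in replicate 3.

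The checkpoint kinase genes ran higher in replicate 3, except Chek2. Atm, the kinase activated by double-strand breaks, stood at 63.4, 72.8 and 107 CPM (1.70-fold from the lowest to the highest library). Atm was the 1 repair gene that also differed between replicates 1 and 2, by 1.15-fold. Atr, the kinase activated by single-stranded DNA, stood at 36.5, 41.2 and 62.6 CPM (1.73-fold). Their ratio was even, with Atr over Atm at 0.252, 0.247 and 0.256 per kb, and was 0.697 with longest transcripts. Chek1, the effector of Atr, stood at 16.05, 17.9 and 26.6 CPM and Chek2, the effector of Atm, at 19.05, 21.01 and 19.6 CPM, and only Chek1 was called different. Chek1 over Chek2 gave 0.546, 0.552 and 0.880 per kb, not larger than the spread.

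End joining was led by the Ku genes Xrcc5 and Xrcc6, whose products form the ring that holds broken ends. Xrcc5, which was called and lowest in replicate 3, stood at 60.97, 60.7 and 53.7 CPM and Xrcc6 at 77.3, 78.1 and 81.2 CPM. Xrcc6 over Xrcc5 gave 0.724, 0.734 and 0.864 per kb, a call that was lost without replicate 1 (0.796) and without replicate 2 (0.791) and turned with longest-transcript lengths (1.05) and without length correction (1.35). Prkdc, the kinase that Ku recruits, stood at 45.1, 50.8 and 50.7 CPM; it was called, with replicate 1 lowest and replicate 3 highest after TMM scaling, and the call was lost without replicate 1 (adjusted p = 0.90). Lig4, the ligase of this route, stood at 20.1, 20.04 and 20.8 CPM, within 1.05-fold across libraries (adjusted p = 0.706, chi-square test).

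Polq encodes the polymerase of the theta-mediated joining route, which uses short matching sequences, and lies on chromosome 16 at 37011786 to 37095417. It stood at 20.6, 21.7 and 48.97 CPM in replicates 1, 2 and 3, 2.39-fold from the lowest to the highest library, the largest difference among the 54 genes tested (adjusted p = 8.0e-122, chi-square test). Replicates 1 and 2 lay together and replicate 3 far above. Polq over Lig4 gave 0.550, 0.581 and 1.26 per kb, below 1 in replicates 1 and 2 and above 1 in replicate 3, so the pair has no order that holds in every library. The Polq promoter window, at chr16:37011536-37011835, plus strand, is shown because of this difference and holds none of the E2F words.
Polq: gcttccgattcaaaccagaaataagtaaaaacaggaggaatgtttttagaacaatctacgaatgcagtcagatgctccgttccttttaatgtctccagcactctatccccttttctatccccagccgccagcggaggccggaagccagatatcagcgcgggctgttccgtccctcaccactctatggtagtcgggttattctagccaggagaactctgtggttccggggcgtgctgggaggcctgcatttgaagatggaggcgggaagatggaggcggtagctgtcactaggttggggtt

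The roles differed in how far replicate 3 stood from the mean of the libraries. On the log2 scale the median over genes was 0.34 for the Fanconi anaemia pathway, 0.31 for homologous recombination and 0.26 for break sensing and checkpoint. It was 0.06 for mismatch repair, 0.04 for glycosylases, 0.05 for base excision processing, 0.05 for nucleotide excision repair, 0.05 for end joining and -0.22 for direct reversal, and close to 0 for all genes tested. Differences between roles were not tested. All 16 proliferation markers were also called and highest in replicate 3, against 33.1% of all genes tested (median 0.37, summed level 2205, 2259 and 3402 CPM). Of the p53 target genes, 12 of 16 were called and lowest there, against 31.5% of all genes tested (median -0.26, summed level 1419.6, 1434 and 1086 CPM). The p53 target Ddb2 is also 1 of the further nucleotide excision genes. The part of both lists in the pattern of the repair genes was not tested, and in bulk RNA fewer cells of a kind cannot be told apart from less RNA per cell.

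**Figure D4:**
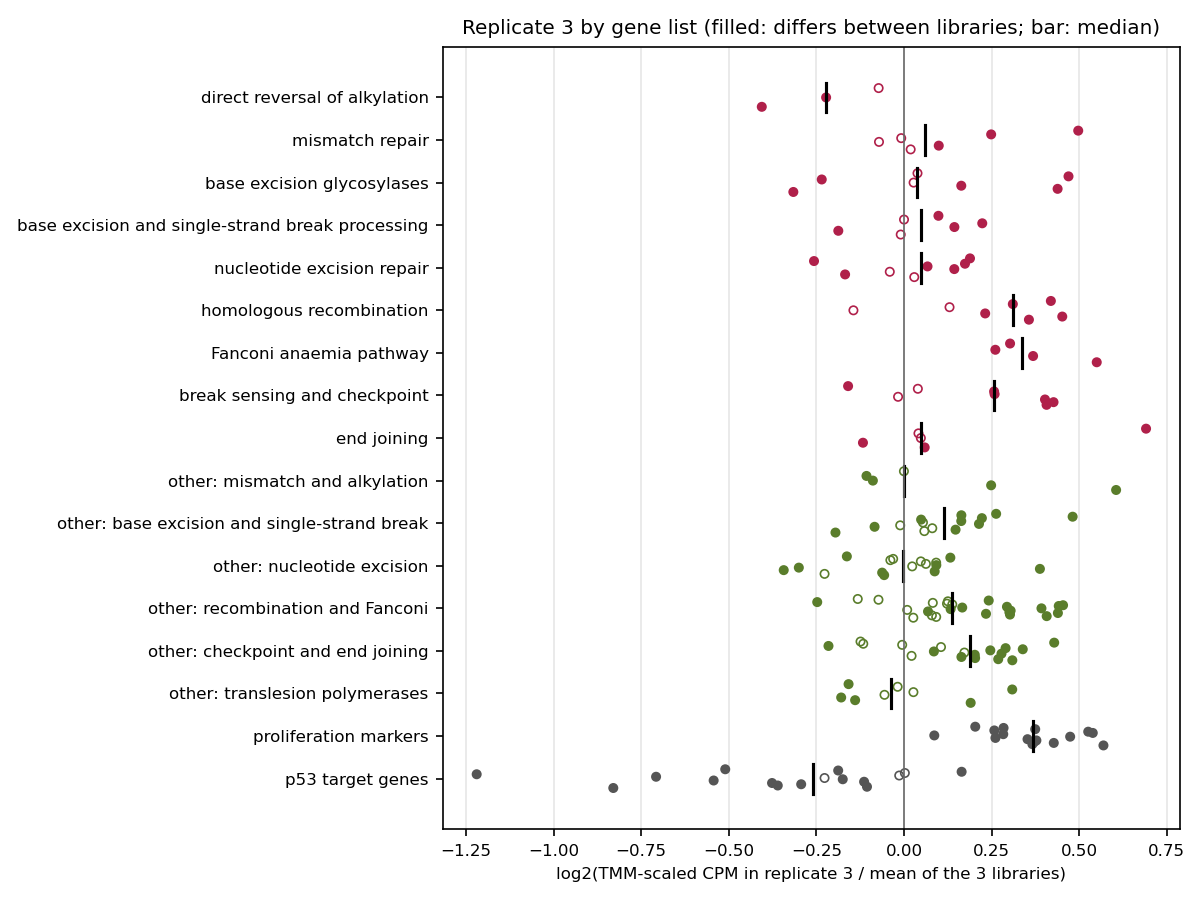
Log2 of the TMM-scaled CPM in replicate 3 over the mean of the 3 libraries, 1 point per gene tested, for the 9 repair roles (red), 6 lists of other repair genes (green) and 2 context lists (grey); filled points differ between libraries and black bars are medians. The recombination, Fanconi and checkpoint lists lie to the right with the proliferation markers, and the p53 target genes and direct reversal genes lie to the left.

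A further 88 repair genes in 6 lists were set beside the 55. Of these, 85 were detected, and Msh4 of meiotic recombination and the thymine glycosylase gene Tdg lay below 1 CPM in all libraries, while Msh5, the partner of Msh4, was split. RefSeq annotates a transcribed pseudogene of Tdg, and reads placed at more than 1 position are not assigned, so its level is uncertain. Of 86 tested, 41 (47.7%) were called and highest in replicate 3 and 14 (16.3%) called and lowest, against 33.1% and 31.5% of all genes tested, the shares against which the counts of the single lists also stand. In the list of recombination and Fanconi genes 14 of 25 were called and highest and 1, Fancg of the core complex, called and lowest; it ran from the nuclease adaptor Slx4 (52.7, 50.3 and 70.8 CPM, 7.57 ± 1.46 CPM per kb), the highest, to the nuclease and helicase Dna2 (4.78, 5.21 and 8.18 CPM, 1.03 ± 0.315 CPM per kb), the lowest. In the list of checkpoint and end joining genes 11 of 18 were called and highest. The list ran from the damage-marking histone gene H2afx (68.96, 64.9 and 96.96 CPM, 55.6 ± 12.6 CPM per kb) to the ubiquitin ligase gene Rnf8 (3.30, 3.001 and 3.77 CPM, 0.287 ± 0.0331 CPM per kb). Rnf8 shares 13.2% of its exon bases with the listed gene Rnf8-cmtr1, so its level can be understated.

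In the list of base excision and strand-break genes 8 of 14 tested were called and highest in replicate 3 and 2 called and lowest, and the clamp gene Pcna was the highest (190.4, 197 and 229 CPM, 85.6 ± 8.67 CPM per kb). In nucleotide excision repair 4 of 16 were called and highest and 5 called and lowest, between the damage-binding gene Ddb1 (1404, 1389.8 and 1309 CPM, 213 ± 7.97 CPM per kb) and Ercc8, a partner of Ercc6 (4.16, 4.73 and 6.83 CPM, 0.685 ± 0.184 CPM per kb). Of the further alkylation and mismatch genes, the RNA demethylase gene Alkbh5 was the highest (145, 132 and 124 CPM, 22.3 ± 1.84 CPM per kb).

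Promoter windows were found for 46 of the 55 genes, 52 windows in all. An E2F word stood in 9 of the 52 (17.3%), against 4.04% of the 11243 windows of genes detected in all libraries and 2.27% of all 32851 windows. The genes with a word were Bard1, Brca2, Chek2, Msh3, Msh6, Nthl1, Rad51c with 2 windows, and Xrcc6. A word stood in 3 of 25 windows of genes called and highest in replicate 3, 0 of 8 windows of genes called and lowest there, and 6 of 19 windows of the other genes; these shares were not tested against each other. A match of letters is a description of the window and not evidence of binding. Other forms of the motif were not searched, so a window without a word may still hold one.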

How the data were processed

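Per the files, the authors deposited raw counts per gene symbol, 1 table per library, with 24421 gene lines and 5 summary lines that were left out here. Per the submitters' processing notes, the tools were HTSeq (no version) and Bowtie2 2.2.4 and the build was mm10; their roles, options, strand setting and annotation are not given in the sources used here. Per the labels, libraries were made with a TruSeq RNA kit from 1 µg of RNA. Without a known strand setting, reads of overlapping genes on opposite strands cannot be told apart. Reads set aside as not unique made up 8.86% to 9.58% of all reads listed, and ambiguous reads 1.01% to 1.05%.

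CPM were computed over the counts assigned to genes. Lengths and positions came from GENCODE M21 (GRCm38, the assembly mm10 names): 23350 symbols matched directly, 644 through RefSeq synonyms and 427 not at all (0.774% of counts). Length is the union of exons. Detection meant at least 1 CPM in each of the 3 libraries. With 1 group no contrast exists, so edgeR's quasi-likelihood test could not be run. Each gene's 3 counts were instead compared with equal levels after TMM scaling by a chi-square test (2 degrees of freedom) for mean counts of at least 10, with Benjamini-Hochberg adjustment over all genes at 0.05; it compares these libraries with counting noise only. Gene ratios used a pseudocount of 0.5 counts. The chi-square step was tested on simulated data. The rule for the repair genes uses symbols alone, but these genes, the lists, pairs and tests were chosen with earlier results of these data known. All 55 genes are named; of each further list, the highest and lowest gene per kb and those below 1 CPM. Alternatives were other scalings, thresholds, pseudocounts, filters and lengths, and leaving out each library. Software was R 4.3.3, edgeR 4.0.16, DESeq2 1.42.0 (size factors only), matplotlib 3.10.9, pandas 2.3.3, scipy 1.17.1, numpy 2.4.6 and Python 3.11.15.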

Additional observations from a re-analysis of the deposited data

How the results depend on the processing

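The count of detected repair genes was 54 under every alternative but a threshold of 5 CPM (51). The count of genes differing between libraries ran from 1 without replicate 3 to 39 without replicate 2, against 38; it was 38 under each other scaling and filter tried. Those highest in replicate 3 numbered 28 to 30 and those lowest 7 to 9. Between 13 and 20 of 20 gene pairs exceeded the spread, against 16. The median levels per kb of the 9 roles depended on the length used. They moved in 7 roles with longest-transcript lengths and in 2 roles without shared exon bases. They held under the other scalings and with 1 replicate left out.

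On the log2 scale, longest-transcript lengths reversed Xrcc1 over Lig3 (0.44) and Xrcc6 over Xrcc5 (0.0669) and ended the calls of Pms2 over Pms1 (0.0997) and Neil3 over Neil1 (-0.63). Without length correction, 4 pairs reversed: Neil3 over Neil1 (0.23), Nbn over Rad50 (-0.56), Xrcc6 over Xrcc5 (0.43) and Polq over Lig4 (0.46), and Fancd2 over Fanci lost its call (-0.0951). Leaving out shared exon bases ended the calls of Alkbh3 over Alkbh2 (0.13) and Xrcc6 over Xrcc5 (-0.26). Averaging replicates 1 and 2, an alternative chosen after seeing the data, ended those of Neil3 over Neil1 (-1.15) and Xrcc6 over Xrcc5 (-0.33). These follow from the lengths and samples entered. With 1 replicate left out, Neil3 over Neil1 ran from -1.71 to -1.14 and Xrcc6 over Xrcc5 from -0.46 to -0.33, called only without replicate 3. Pms2 over Mlh3 ran from -0.55 to -0.29, Mre11a over Rad50 from -0.36 to -0.18, Chek1 over Chek2 from -0.87 to -0.52 and Polq over Lig4 from -0.82 to -0.22; these 4 pairs gained a call without replicate 3. No paired analysis was possible because there is 1 group.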

Other observations

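Translesion synthesis copies past lesions that repair has not removed. All 8 genes chosen for its list were detected, against 54.1% of protein-coding genes. Their median was 6.92 ± 0.0769 CPM per kb (SD, n = 3). Ube2b, a ubiquitin-conjugating enzyme that acts with Rad18 on the replication clamp, was the highest (110.4, 115 and 95.5 CPM in replicates 1, 2 and 3) and the polymerase gene Poli the lowest (8.72, 10.8 and 8.43 CPM). The genes did not share a direction across libraries. Polh and the ligase gene Rad18 were called and highest in replicate 3 (36.1, 34.5 and 43.1 CPM and 53.8, 55.5 and 76.4 CPM), Polk, Poli and Ube2b were called and lowest there, and Rev1, Rev3l and Ube2a did not pass the chi-square test.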
